A study of Drosophila melanogaster with 8 samples.

Results

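The 4 control libraries of a study of the DNA-binding protein Stonewall were described across all genes, as the baseline of a Drosophila melanogaster ovary enriched for cells that resemble germline stem cells (GSCs). They were taken as every sample whose label gives the control genotype and no Stonewall overexpression, 4 of the 8 samples in the series. Values were available for 14094 genes in each library. Females were 4 to 5 days old, and about 35 ovaries were pooled for each sample. The other 4 libraries, which carry Stonewall overexpression, were not used. Nothing in the sources used here names the genetic tools that enrich the cells, so the genotype of the controls is known only as "Control". The labels do not say that replicates came from separate crosses, so the spread given below may be partly technical.

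A female GSC sits in a niche at the tip of the germarium, where cap and terminal filament cells send BMP ligands to it. BMP signalling keeps the differentiation gene bam silent, and a daughter that leaves the niche turns bam on, divides into a cyst and enters meiosis. Somatic escort cells and then follicle cells wrap the cyst, and follicle cells later make yolk proteins, the vitelline membrane and, last, the chorion of the eggshell.

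RNA was selected for poly(A) tails, and abundance is given as TPM (transcript abundance corrected for transcript length, scaled to sum to 1000000 in every library). Levels of different genes whose RNAs carry poly(A) tails can therefore be set side by side. RNAs without such tails are selected against, and their levels are not comparable with the others. TPM keeps no sequencing depth, so the depth is unknown and no counting interval was formed. With a single group there was nothing to test. Each value stands beside its standard deviation (SD) over the 4 libraries. In bulk ovaries, fewer cells of a type and less RNA per cell cannot be told apart, which holds for every level below.

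The libraries were alike in size and shape. Between 8618 and 8941 genes reached 1 TPM in a library, and between 2433 and 2754 were listed at 0. Pearson's r of log2(TPM + 1) across genes lay between 0.988 and 0.994 for the 6 pairs. Genes are not independent replicates, and no p belongs to these values. Control 3 was in each of the 3 lowest pairs, and the lowest r was 0.993 without it. Controls 1 and 3 stood apart in a small set of genes. Control 3 held 512 TPM of Jonah proteases, digestive enzymes of the gut, against 4.58, 6.99 and 7.03 TPM in controls 1, 2 and 4. It also held 802 TPM of chorion genes against 144, 112 and 269. Control 1 held 161 TPM of Send1, a protease gene of the spermatheca, against at most 0.0521 in the others. Results that rest on these genes are given with and without the library.

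Of the 14094 genes, 8400 (59.6%) were at 1 TPM or more in every library and are referred to as detected. Counts of detected genes in the lists and families below stand against this 59.6%. A further 1651 (11.7%) were listed at 0 in all 4 libraries. Between these classes, 3256 genes stayed below 1 TPM in every library but above 0 in some, and 787 crossed 1 TPM between libraries. An exact 0 can be a failed estimate as well as an absent RNA. The abundance was uneven. The 132 genes with a mean of 1000 TPM or more held 53.8% of all TPM, while the 5558 genes between 10 and 100 TPM, the fullest class, held 21.1%. In control 1, 102 genes were enough to reach 50% of the TPM, and 96, 110 and 106 were enough in controls 2, 3 and 4.

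**Figure D1:**
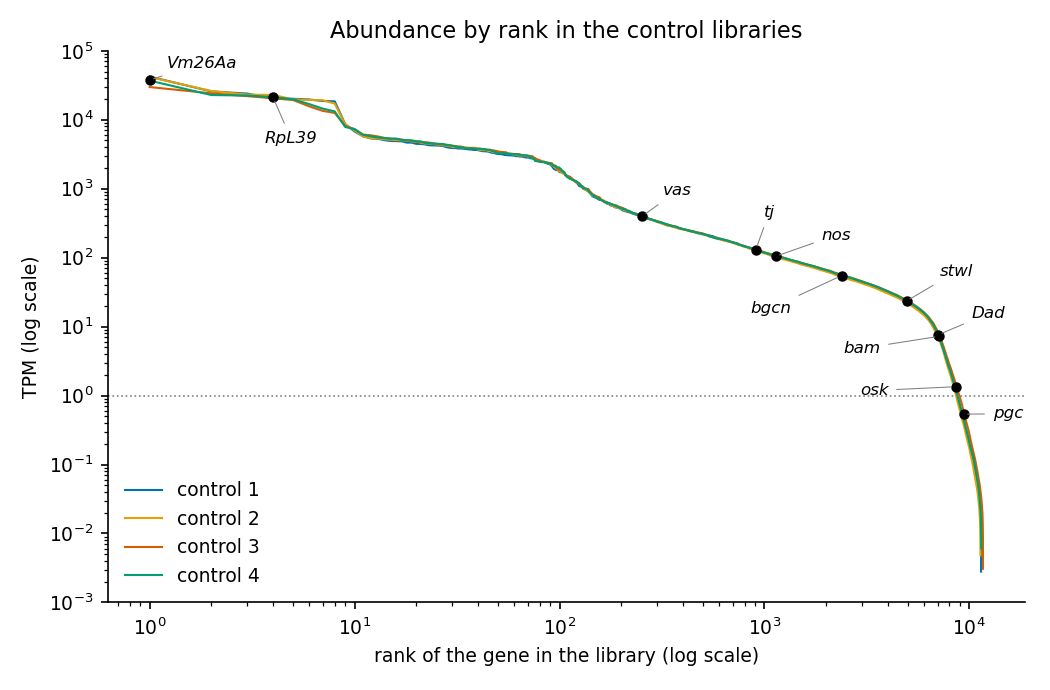
TPM of every gene above 0 against its rank in each of the 4 control libraries, both on log scales, with 11 genes marked at their mean TPM and the rank of that mean. The 4 curves lie close to each other over most ranks, and the germline gene vas, at rank 254, sits far above bam and Dad, whose ranks are 7112 and 7051.

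Eggshell, yolk and translation RNAs led the libraries. Vm26Aa, which encodes a vitelline membrane protein, was the most abundant gene in every library, at 42176, 41488, 29745 and 36854 TPM in controls 1 to 4. It lies on 2L at 5959596 to 5960340 (BDGP6, minus strand), and Vm26Ab, Vm26Ac and psd, also vitelline membrane genes, lie beside it between 5957004 and 5964951. Vm34Ca, a further vitelline membrane gene, was second at 23089.6 ± 3352 TPM (SD, n = 4). The yolk protein genes Yp2 and Yp1 were at 19802 ± 4158 and 16178 ± 3828 TPM, and Vm26Ab was at 15863 ± 2332. The remaining places among the first 8 belonged to RpL39 and RpL41, ribosomal proteins of the large subunit, and to CG43134. CG43134, a gene known here by its number alone, held rank 3 by its mean, at 20123, 23125, 24120.0 and 22793 TPM and lies on X at 4247313 to 4247785 (plus strand). Its neighbour CG43135 was at 22 ± 16.2 TPM.

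From rank 9 to rank 20 the genes were those of translation. They were eEF1alpha1, the elongation factor that brings aminoacyl-tRNA to the ribosome, at 8284 ± 377 TPM, then RpLP1, RpS25, RpL23, RpL36, RpL37a, RpS27A, RpS15, RpL29, RpS23 and RpL27, and last sta, also a ribosomal protein of the small subunit, at 4698 ± 231. The 20 most abundant genes of a library held 24.3 ± 1.44% of its TPM (SD, n = 4). They were short: the median length of the longest annotated transcript was 735.5 nt for the 20 genes with the highest mean, against 2036.5 nt for detected genes.

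Genes named RpL or RpS made up 80 of the 132 genes at 1000 TPM or more. The family was defined by these names, so sta is not counted in it. Of 92 such cytosolic ribosomal protein genes measured, 89 were detected, and the 92 together held 31.2 ± 1.05% of the TPM. Their summed TPM was 298850.0, 307775, 320958 and 319597 in controls 1 to 4. All 73 mitochondrial ribosomal protein genes were detected too, at a much lower median of 70.1 TPM against 3166 TPM for the cytosolic set. Genes above 1000 TPM outside the lists and families included MtnA, a metallothionein, at 3447 ± 565 TPM, Rack1, a ribosome-bound scaffold protein, at 3097 ± 41.0, and the chaperone Hsc70-4 at 2905 ± 109. These 3 were chosen after their values were seen. They held the 4th to 6th places among 38 such genes, after CG43134, eEF1alpha1 and sta.

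Germline genes were present at high and even levels. The RNA helicase vas, a defining marker of germ cells, was at 403, 385, 410.1 and 409.7 TPM in controls 1 to 4, with a mean of 402 ± 11.9 and rank 254 of 14094. The translational repressor nos, needed to keep GSCs, was at 105, 94.4, 109.9 and 109.6 TPM, with a mean of 105 ± 7.24 and rank 1135. Both were lowest in control 2, and the SD was a small share of either mean. All 14 genes of the germline identity list were detected, with a median of 114 TPM, where the median of all 8400 detected genes was 29.7 TPM. The most abundant after vas were piwi, AGO3 and aub, the Argonaute proteins of the piRNA pathway, at 304 ± 17.4, 190.4 ± 6.49 and 172 ± 6.34 TPM. The lowest was otu, a germline differentiation gene, at 35.0 ± 4.30 TPM.

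The differentiation pair was unequal. bam, the switch that starts cyst differentiation, was at 8.07, 6.40, 7.24 and 7.20 TPM in controls 1 to 4, a mean of 7.23 ± 0.68 and rank 7112. Its partner bgcn, an RNA-binding protein, was at 58.3, 51.0, 55.3 and 55.3 TPM, a mean of 55 ± 3.00 and rank 2383. The ratio of bgcn to bam was 7.23, 7.97, 7.65 and 7.68, and that of nos to bam was 13, 14.7, 15.2 and 15.2. The libraries thus agreed in the order nos, bgcn, bam. tut, whose product acts with Bam and Bgcn, lay between them at 18.7 ± 1.72 TPM. The germ cell markers vas and nos were thus well above bam, but no ovary without the enrichment was among the samples, so the labelled enrichment was not tested. The libraries also held abundant RNA of follicle cells and muscle, described below, so they are not germ cells alone.

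BMP pathway RNAs were detected without exception but at modest levels. The receptors sax, tkv and put were at 60.9 ± 4.80, 55.5 ± 3.58 and 45.6 ± 1.28 TPM, the ligand gbb at 52.5 ± 3.31 and the signal transducer Mad at 34.3 ± 0.96. The ligand dpp was the lowest of the 13 genes at 2.45 ± 0.562 TPM. Dad, a pathway inhibitor that BMP signalling induces, was at 8.35, 8.45, 6.76 and 6.89 TPM in controls 1 to 4, a mean of 7.61 ± 0.914. It was higher in controls 1 and 2 than in controls 3 and 4. The levels of Dad and bam overlapped between libraries, so their order is not separated by the spread. The median of the list was 20.7 TPM, below that of all detected genes.

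Genes that keep GSCs or drive the cyst were all detected. In the stem cell maintenance list (14 of 14, median 58.0 TPM) the leading genes were eff, a ubiquitin-conjugating enzyme, at 375 ± 19.9 TPM, Sxl, an RNA-binding protein of sex determination, at 184 ± 10.6, and the chromatin remodeller Iswi at 146 ± 4.52. The study's own protein was encoded by a less abundant RNA: stwl was at 25.1, 21.9, 23.6 and 23.5 TPM, a mean of 23.5 ± 1.31 and rank 4937. In the cyst differentiation list (12 of 12, median 43.0 TPM) hts, an adducin of the fusome, was at 162 ± 12.8 TPM and orb, a cytoplasmic polyadenylation factor, at 51.1 ± 2.65. A2bp1 and Rbp9, RNA-binding proteins of the later cyst, were at 22.7 ± 1.95 and 28.3 ± 0.422 TPM.

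Meiotic genes were present. All 22 genes of the synaptonemal complex and recombination list were detected, with a median of 17.5 TPM. The most abundant were cona, c(3)G and corolla, of the synaptonemal complex, with cona at 224, 219, 249 and 265 TPM in controls 1 to 4, c(3)G at 135 ± 3.86 and corolla at 84.5 ± 7.06, together with the cohesion gene ord at 107 ± 8.45. c(2)M, also of the synaptonemal complex, was lower, at 15 ± 1.46 TPM. The lowest genes of the list were mei-W68 and mei-P22, which are needed for double-strand breaks, at 4.27 ± 0.341 and 3.61 ± 0.664 TPM. vilya, nenya and narya, which also act in break formation, were at 25.9 ± 1.01, 32.9 ± 1.94 and 14 ± 1.59 TPM. The 29 piRNA pathway genes were all detected at 10 TPM or more in every library, from BoYb at 14.5 ± 0.673 TPM to vas. The 22 cell cycle and replication genes were as complete, with a median of 106 TPM and with PCNA, the replication clamp, highest at 424 ± 8.07.

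RNAs of the growing oocyte were detected but lower. The list of oocyte and maternal RNAs had 24 of 25 genes detected and a median of 15.8 TPM. Its top members, sqd at 254 ± 26 TPM and CycB at 111 ± 3.51, also act outside the oocyte. Among RNAs that are localised in the oocyte to set the body axes, grk was at 8.93, 8.91, 8.46 and 9.22 TPM, bcd at 9.60, 7.38, 9.11 and 8.48 and osk at 1.52, 1.32, 1.19 and 1.34 in controls 1 to 4. pgc, a germ plasm RNA, was below 1 TPM in every library at 0.537 ± 0.287. The mean level of nos was 78.6 ± 10.9 times that of osk within a library.

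**Figure D2:**
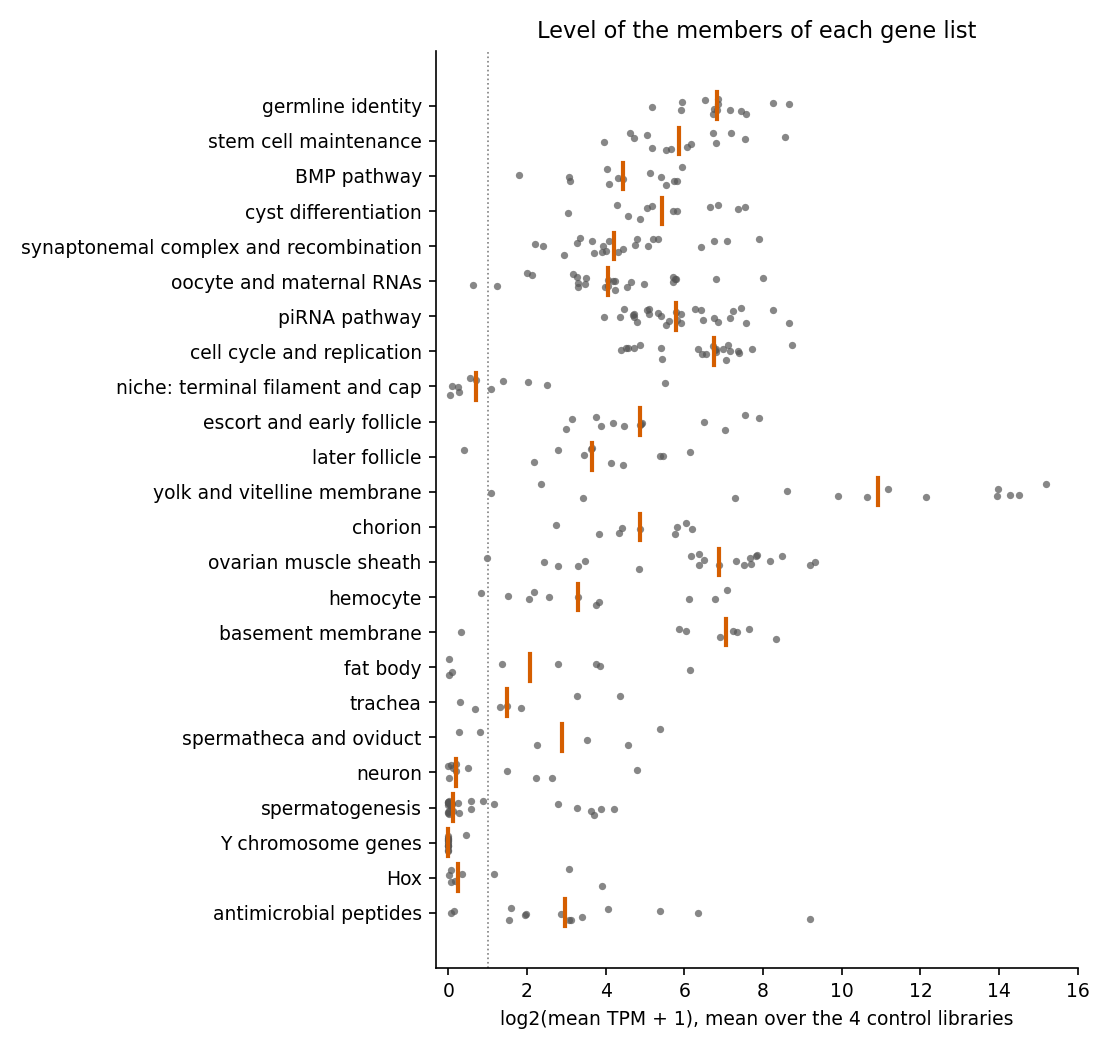
Level of each member of 24 gene lists as log2(mean TPM + 1) over the 4 control libraries; each point is a gene, the orange bar is the median of the list and the dotted line marks 1 TPM. The yolk and vitelline membrane list reaches highest, the germline lists lie right of the dotted line, and the niche, neuron, spermatogenesis, Hox and Y lists have medians below it.

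Somatic cells of the germarium were represented unevenly. All 13 genes of the escort and early follicle list were detected, with a median of 28.3 TPM. The cell adhesion gene Fas3 was at 238 ± 12.8 TPM and fax, an escort cell gene, at 186 ± 9.07. tj, a transcription factor of somatic gonad cells, was at 163, 149.5, 108 and 98.4 TPM in controls 1 to 4. Controls 1 and 2 were above controls 3 and 4, and the SD of 31.4 on a mean of 130 was a far larger share than for vas. The list as a whole did not share this order, and cas went the other way, at 17.7, 16.6, 25.2 and 24.7 TPM. Of the 13 members, 5, 1, 3 and 4 were highest in controls 1 to 4. Over all genes whose mean reached 1 TPM the shares were 29.9%, 10.2%, 28.3% and 31.5%. The ratio of vas to tj was 2.47, 2.57, 3.81 and 4.17. In log2(TPM + 1), the median of the germline identity list was above that of the escort and early follicle list by 1.93, 2.04, 2.00 and 1.98, a mean of 1.99 ± 0.045. The lists were not matched in what they hold, so this is a level of RNA and not a count of cells.

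The niche list was low. Of 11 genes of terminal filament and cap cells, 4 were detected. LamC, a lamin found in many somatic cells, was at 44.6 ± 4.89 TPM, then bab2, a transcription factor, at 4.72 ± 0.536, the Notch ligand Dl at 3.09 ± 0.585 and the signal hh at 1.64 ± 0.452. Another 6 members were below 1 TPM in every library: bab1, upd1, inv, Lmx1a, en and wg, the last at 0.029 ± 0.0375 TPM. The germline identity median lay 6.14 ± 0.18 above the niche median on the log2(TPM + 1) scale.

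Genes that follicle cells express past the germarium led the yolk and vitelline membrane list, which had the highest sum of all lists. The 14 genes of the yolk and vitelline membrane list held 12.2% of all TPM, and their sum was 141947, 138586, 98195 and 111171 TPM in controls 1 to 4. Controls 1 and 2 were again above controls 3 and 4. Of the 14 genes, 11 were lowest in control 3, all but fs(1)N, fs(1)M3 and clos. Control 3 was the lowest library for 9.93% of all genes whose mean reached 1 TPM. Yp3 was at 5292, 5345, 3581 and 3934 TPM, Vml at 1920.2, 2074, 1122 and 1281 and Vm32E at 1085, 1315, 618 and 816. Yolk proteins are also made by the fat body, of whose 8 listed markers 4 were detected (59.6% over all genes). These were Obp99a at 69.8 ± 10.7 TPM, Lsp2 at 13.5 ± 7.72, apolpp, a lipoprotein, at 12.6 ± 7.71 and Lsp1beta at 5.86 ± 5.10, and their part in the yolk gene levels was not tested. The lowest members, clos and fs(1)N, were at 1.13 ± 0.153 and 4.12 ± 0.453 TPM.

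Genes of later follicle cells were detected in 10 of 11 cases, with a median of 11.6 TPM. ndl, a protease that follicle cells secrete for embryonic patterning, was at 100.3, 80.0, 52.3 and 44.8 TPM, and Cad99C, a cadherin of follicle cell microvilli, was at 50.1, 48.3, 33.9 and 29.7. Both were ordered like tj, with controls 1 and 2 above controls 3 and 4. br, pip and slbo shared this order, with br at 20.5, 20.5, 15.2 and 10.6 TPM. So did the summed TPM of the list, at 285, 248, 208 and 192, to which ndl gave most. The median of the list on the log2(TPM + 1) scale did not, at 3.66, 3.66, 3.70 and 3.72. Nor did mirr, ct, peb, tsl, pnt and ttk: ttk was at 47.2, 41.6, 44.05 and 40.3 TPM and peb at 21.3, 17.3, 21.1 and 23.6. Of the 10 members whose mean reached 1 TPM, 6, 1, 0 and 3 were highest in controls 1 to 4. Over all genes with such a mean the shares were 29.9%, 10.2%, 28.3% and 31.5%. slbo, the border cell transcription factor, was below 1 TPM in every library at 0.316 ± 0.129.

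The chorion genes, the last eggshell genes to be switched on, were far lower than the vitelline membrane genes and were uneven between libraries. Their summed TPM was 144, 112, 802 and 269 in controls 1 to 4, a mean of 332 ± 321. Without control 3 the mean was 175 ± 83.2. All 9 genes were highest in control 3, against 28.3% of all genes whose mean reached 1 TPM. Cp36 was at 40.4, 41.0, 135 and 74.1 TPM and Cp38 at 35.2, 34.3, 129 and 59.4, and both lie in the X cluster (8470888 to 8483311). Cp18 was at 21.0, 7.33, 179 and 13.3 TPM, Cp19 at 2.89, 1.13, 105 and 3.15 and Cp16 at 3.03, 0.432, 71.1 and 2.18, and these lie in the 3L cluster (8726791 to 8732599). Leaving Cp15 aside, in controls 1, 2 and 4 the X genes Cp36 and Cp38 stood above the 3L genes Cp18, Cp19 and Cp16, and in control 3 Cp18 was the highest of all 9. Cp15, also of the 3L cluster, was at 19, 4.75, 109 and 78.8 TPM, and in control 4 it was the highest of the 9 genes. Within a library the summed yolk and vitelline membrane TPM was 987, 1240.5, 122 and 413 times the chorion sum.

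**Figure D3:**
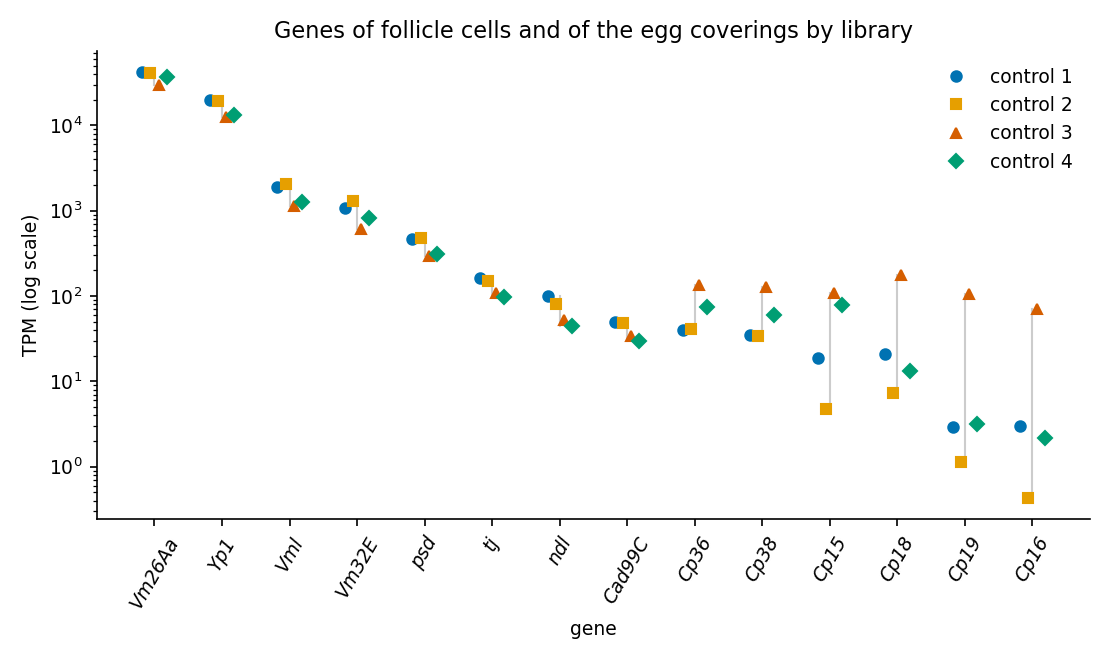
TPM on a log scale of 14 genes of follicle cells and egg coverings in each control library, 1 symbol per library. For Vm26Aa to Cad99C, controls 1 and 2 lie above controls 3 and 4, whereas each chorion gene is highest in control 3.

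RNA of tissues that surround the ovarioles was present. Of 21 genes of the ovarian muscle sheath list, 20 were detected, with a median of 118 TPM, close to that of the germline identity list (114 TPM). Act57B, a muscle actin, was at 632, 822, 546 and 562 TPM in controls 1 to 4 and Mp20, a muscle calponin-like protein, at 571, 680.3, 543 and 563. Of the 20 members whose mean reached 1 TPM, 15 were highest in control 2, against 10.2% of all genes with such a mean. The germline identity median minus the muscle median was -0.31, -0.24, 0.23 and 0.13 on the log2(TPM + 1) scale, so its sign was not the same in every library.

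Basement membrane genes were high as well, with 7 of 8 detected and a median of 134 TPM. SPARC, a collagen-binding protein, was at 321 ± 27.7 TPM, and the type IV collagen genes Col4a1 and vkg were at 199.6 ± 13.7 and 149 ± 8.93. Blood cell genes were lower, with 10 of 11 detected and a median of 8.79 TPM. Nplp2 led at 192, 148, 123 and 72.6 TPM, crq, a scavenger receptor, was at 108 ± 12, and the more selective blood cell genes Hml, NimC1 and eater were between 1.87 and 3.54 TPM. Tracheal genes had 5 of 7 detected, with a median of 1.82 TPM, and neuronal genes 4 of 11, with a median of 0.146 TPM. Of all genes 59.6% were detected, and the tracheal count was not far from that share. VGlut, a glutamate transporter, was listed at 0 in every library, and elav, the neuronal marker, was at 5.20 ± 1.43 TPM.

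**Figure D4:**
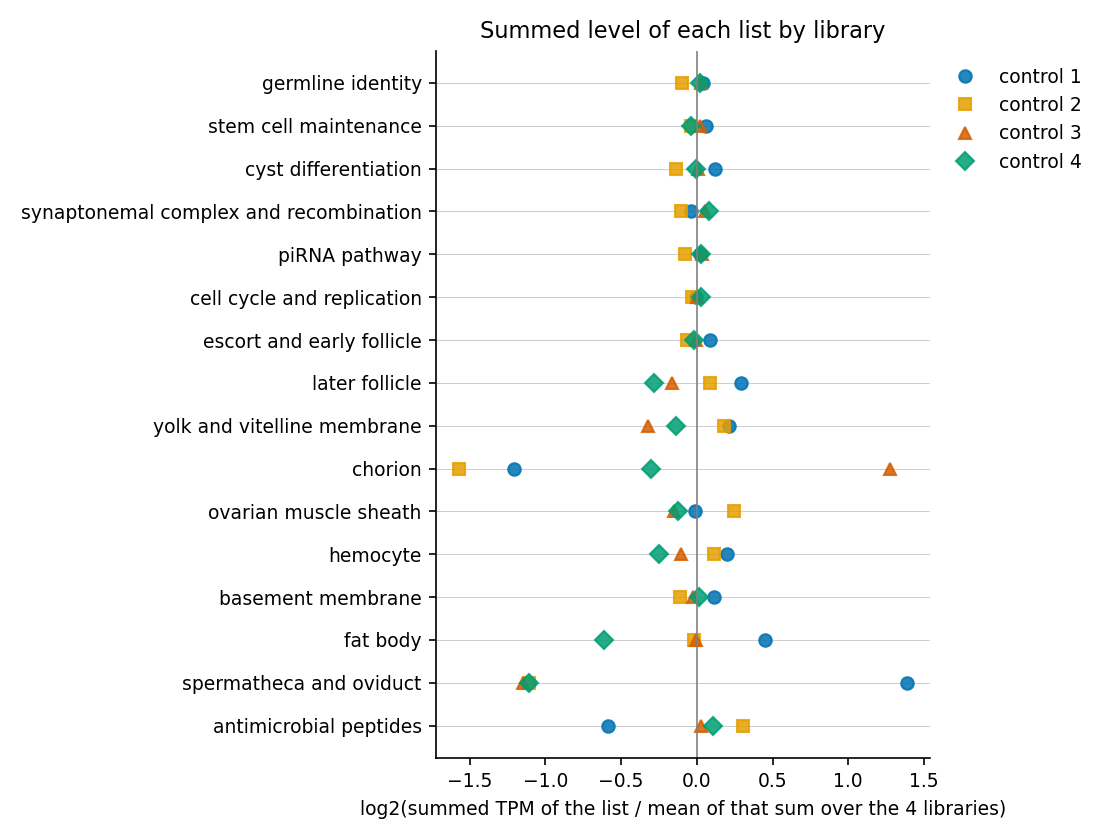
Summed TPM of 16 gene lists in each control library, as log2 of the ratio to the mean of that sum over the 4 libraries; each symbol is a library. The germline, cell cycle and escort lists lie near 0, while the chorion sum is highest in control 3 and the spermatheca and oviduct sum is highest in control 1.

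Genes of the male germline were mostly silent, with a group of exceptions. Of 26 spermatogenesis genes, 6 were detected and 6 were listed at 0 in all 4 libraries. Those at 0 were dj, Mst98Ca, Mst98Cb, Mst84Da, Mst84Db and Mst84Dd, which encode proteins of the late sperm. The detected ones were rye at 17.5 ± 3.16 TPM, bol at 13.6 ± 2.14, mia at 11.9 ± 1.05, tomb at 11.3 ± 2.57, aly at 8.69 ± 0.57 and topi at 5.97 ± 0.471. rye and mia encode testis forms of general transcription factor subunits, aly, tomb and topi belong to a meiotic arrest complex of spermatocytes, and bol is a translation regulator. Their partners were not at the same level: can was at 0.194 ± 0.0668 TPM, nht at 0.854 ± 0.131, and comr and sa were each above 0 in 1 library alone. Of 12 Y chromosome genes, 9 were listed at 0 in every library, and FDY was the highest at 0.25, 0.0638, 1.11 and 0 TPM. kl-3 and kl-5, dynein genes of the sperm tail, were above 0 in control 3 alone, at 0.0035 and 0.00308 TPM. msl-2, the male dosage compensation gene that Sxl represses in females, was at 5.41 ± 0.412 TPM.

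Several gene families were silent almost throughout. Against 59.6% of all genes, 2 of 59 odorant receptor genes, 2 of 59 gustatory receptors and 3 of 66 ionotropic receptors were detected. Or43b was at 14.2, 14.7, 13.9 and 13.9 TPM in controls 1 to 4, Gr61a at 8.0, 5.40, 7.24 and 8.34 and Ir7c at 20.9, 21.3, 15.2 and 18.1, and each was the highest of its family. Cuticle protein genes had 9 of 98 detected, Tweedle cuticle genes 1 of 26 and Osiris genes, of which many are expressed in cuticle-forming epithelia, 1 of 25. Of 45 accessory gland and seminal fluid protein genes, 1 was detected (Acp95EF at 4.72 ± 1.52 TPM) and 27 were listed at 0. Cytochrome P450 genes were mixed, with 43 of 84 detected.

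Families of housekeeping machinery held detected members beside copies that were low or silent. Of 48 proteasome genes, 37 were detected, and the other 11 all carry the names of paralogues (suffix R or T, known for expression in the testis), of which 6 were listed at 0. Of 40 complex I genes 32 were detected, and of 15 ATP synthase genes 12. Of 16 cytochrome c oxidase genes 10 were detected, near the 59.6% of all genes. Members below 1 TPM in every library in these 3 families all had names ending in L, L1 or L2. None of the ATP synthase genes was listed at 0 in every library. A few complex I and cytochrome c oxidase genes crossed 1 TPM between libraries and are in neither class.

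By chromosome, the share of genes detected was 66.3% on X, 57.6% on 2L, 59.9% on 2R, 57.4% on 3L and 58.6% on 3R. It was 74 of 87 (85.1%) on the small chromosome 4, and 2 of 80 on Y, both annotated as pseudogenes (CR41507 and CR40801). The median TPM of detected genes was close on X and the large autosome arms, between 28.0 TPM on X and 31.1 TPM on 3L, and 33.1 TPM on 4. Of the 319 annotated pseudogenes, 56 were detected, and protein-coding genes held 99.3% of the TPM.

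Ribosomal protein paralogues were compared within each library, since some are known for use in the germline. The share of the less abundant gene differed widely between pairs. RpS5b was at 1342 ± 84.3 TPM beside RpS5a at 3077 ± 121, which is 30.4 ± 0.58% of the pair's TPM. RpS19b was at 375 ± 23.3 TPM beside RpS19a at 2323 ± 117, or 13.9 ± 0.39%. RpL24-like was at 376 ± 35.4 TPM, or 15.6 ± 0.52% of its pair. The shares of RpL7-like, RpL22-like and RpS15Ab were smaller, at 4.91 ± 0.27%, 4.69 ± 0.85% and 3.31 ± 0.17%. RpS10b was at 2339.6 ± 142 TPM beside RpS10a at 195 ± 21.6, and RpL37a at 5217 ± 119 beside RpL37b at 47.6 ± 4.30. RpL10Aa was listed at 0 in every library while RpL10Ab was at 3674 ± 193 TPM, and RpS28a was at 0.585 ± 0.731 beside RpS28b at 4476 ± 241. RpS14a and RpS14b were near equal at 1741 ± 121 and 1868 ± 162 TPM. Genes this alike can share reads, and the sources used here do not say how the authors' counting divided them, so the level of each single copy is uncertain.

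Isoform families of the cytoskeleton and cell cycle showed the same pattern. betaTub56D was at 2353 ± 49.1 TPM and the testis tubulin betaTub85D at 0.488 ± 0.0951. alphaTub84B was at 2440.2 ± 42.9 TPM and the maternal alphaTub67C at 21.2 ± 2.82. The cytoplasmic actins Act5C and Act42A were at 2372 ± 106 and 1169.6 ± 68.9, and the flight muscle actin Act88F was at 0.0167 ± 0.0194. The B-type lamin Lam was at 173 ± 9.10 TPM beside LamC at 44.6 ± 4.89, and cytochrome c came from Cyt-c-p at 522 ± 16.4 with the testis form Cyt-c-d at 1.82 ± 0.512. The cyclin CycB was at 111 ± 3.51 TPM beside CycB3 at 28.6 ± 1.3, and the cap-binding protein eIF4E1 at 442 ± 9.21 beside eIF4E3, known from the testis, at 63.4 ± 6.31. Across the 22 pairs the median absolute difference was 3.93 on the log2(TPM + 1) scale.

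Most genes varied little between the 4 libraries. The coefficient of variation (CV, the SD as a percentage of the mean) had a median of 7.34% over the 8840 genes whose mean reached 1 TPM. The median was lower at higher abundance, from 16.8% at 1 to 10 TPM through 6.48% at 10 to 100 TPM and 4.84% at 100 to 1000 TPM to 4.35% above. Of 5390 genes whose mean reached 20 TPM, 2226 (41.3%) had a CV under 5% and 35 a CV over 50%. The steadiest was CG12702 at 26.8, 26.7, 26.8 and 26.6 TPM in controls 1 to 4. Next came coro, the actin regulator coronin, at 115, 115, 114 and 115 TPM, and then the folate enzyme gene Nmdmc at 83.8, 83.5, 83.8 and 84.1. CG45100, Apt1, Hpf1, maf-S, EMC2B, ATPsynD and Vang completed the first 10, with CVs up to 0.523% for Vang.

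Control 2 was the lowest library for 50.4% of the 8840 genes, against 22.1%, 9.93% and 17.5% for controls 1, 3 and 4. It was lowest for 13 of the 14 germline identity genes and 11 of the 12 cyst differentiation genes. The shift shared by its genes was small: scaling the libraries by the median of gene ratios divided its values by 0.953 and the others by 1.00 to 1.02. For the 8840 genes, the median absolute log2(TPM + 1) difference from the mean of the other libraries was 0.112 in control 2. It was 0.0948, 0.0704 and 0.0868 in controls 1, 3 and 4.

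The most variable genes were high in a single library. A gene was taken as high in 1 library when it reached at least 5 TPM there and at least 4 times its level in each other library, and 88 genes did so. Control 3 held 67 of them, control 1 held 16, control 4 held 4 and control 2 held 1. The opposite pattern, a gene low in 1 library by the same ratio, was met by 8 genes. Of the 35 genes with a CV over 50%, 20 peaked in control 3, against 28.3% of all genes whose mean reached 1 TPM. Not all of the 35 were high in 1 library by this rule: CG13321 was at 28.8, 33.9, 132 and 143 TPM in controls 1 to 4.

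Digestive genes were prominent in the group of control 3, whose 67 genes summed to 1717 TPM there. Of the 16 Jonah proteases, 9 were high in control 3, with 498 TPM between them. The sum of all 16 was 133 ± 253 TPM over the 4 libraries, and 6.20 ± 1.40 without control 3. Jon25Biii was at 0.473, 0.879, 131 and 1.02 TPM in controls 1 to 4, Jon99Cii at 0, 0.431, 119 and 0.667 and Jon99Ciii at 0.149, 0.452, 85.1 and 0. Both amylase genes, Amy-p and Amy-d, were high there at 18.6 and 16.8 TPM, as were 3 PGRP-SC genes, which encode amidases that cleave bacterial peptidoglycan, with PGRP-SC1a at 42.5 TPM and 0 in the others. Of the chorion genes, Cp18, Cp19 and Cp16 were in the group, and so was Femcoat, an eggshell gene, at 11.1, 9.29, 53.8 and 5.07 TPM. Of the 67 genes, 14 were listed at 0 in controls 1, 2 and 4, among them Jon44E, Jon65Aii, CG8997, CG11911 and CG8560. Markers of the gut were not among the lists, and whether gut tissue came with this sample was not tested.

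The group in control 1 held Send1, at 161, 0.0521, 0 and 0 TPM. CG43090 was at 381, 0.562, 0 and 0 TPM, CG43074 at 200.1, 0.444, 0 and 0.116, CG31681 at 93.8, 0.0957, 0.0546 and 0.0614 and CG17239 at 73.9, 0.135, 0 and 0. CG17239 and Send1 lie close together on 2L, at 2251510 to 2252341 and 2254176 to 2255050, with CG17234, at 2.46, 0, 0 and 0 TPM, between them. Of the other spermatheca and oviduct genes, Send2 was at 2.05, 0.441, 0.144 and 0.319 TPM, while Hr39, a nuclear receptor needed for the spermatheca, was at 25.9, 20.8, 22 and 22.7 and did not stand out in control 1. The sum of that list was 205, 36.3, 35.4 and 36.4 TPM, a mean of 78.4 ± 84.7, and 36 ± 0.556 without control 1. The single gene of control 2 was IM18, an immune-induced peptide, at 1.39, 6.57, 0.162 and 0.531 TPM. In control 4 they were Hsp70Ab, a heat shock gene, at 7.60 TPM and 0 in the others, a histone copy (His4:CG33871), CG43319 and CG43391.

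The values of very short genes came in coarse steps. Of the 70 genes whose longest transcript is under 250 nt, 17 to 22 were above 0 in a library, and none of their values lay between 0 and 2.13 TPM. In control 4 the value of CG43319 was 7.61 TPM, and CR46417 had the identical value. CG43319, CG43391 and the rRNA pseudogene 5.8SrRNA-Psi:CR45863 in control 3 were the 3 genes under 250 nt among the 88. Copies of the histone genes are near identical, so the values of single copies are uncertain too.

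**Figure D5:**
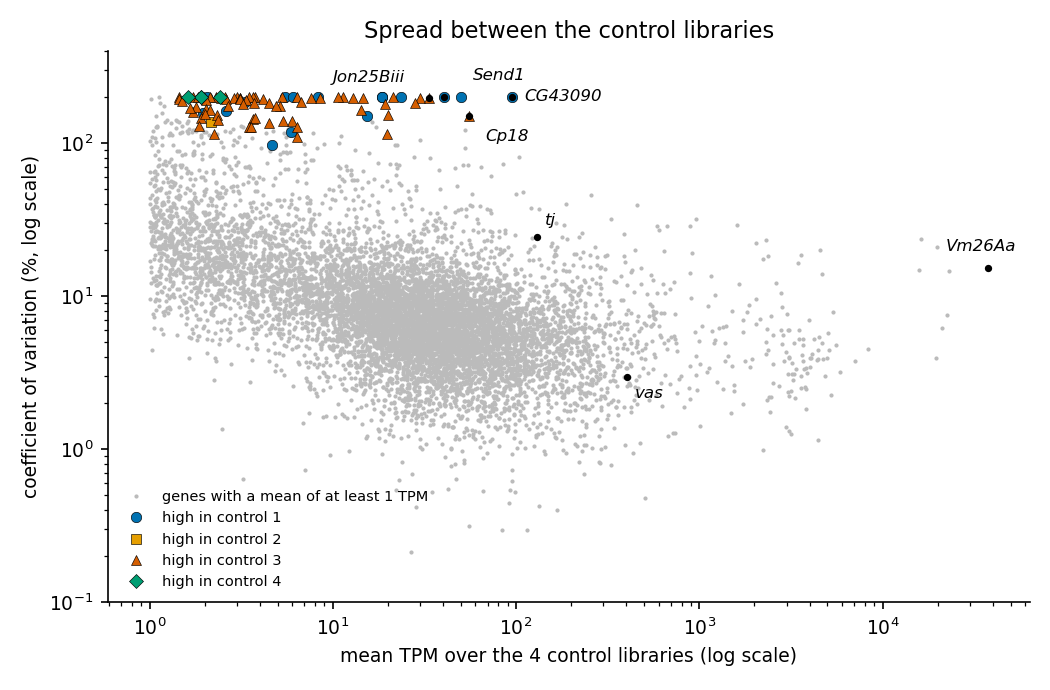
Coefficient of variation against mean TPM over the 4 control libraries, both on log scales, for genes whose mean reached 1 TPM; coloured symbols are the 88 genes high in 1 library. Most genes lie below 20%, vas lies well below tj, and the coloured symbols gather near the upper limit of 200% that 4 values allow when 3 are at 0.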

How the data were processed

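Poly(A)-selected RNA of pooled ovaries was sequenced, and the authors deposited 1 table of TPM values per gene and sample. Its file headers read log2TPM, but each column summed to 1000000, so values were taken as linear TPM. The tools named, per the submitters' processing notes, are DESeq2 1.37.4 and Salmon 1.10.1, with build BDGP6 and no role for either. Gene symbols were found for 14048 of 14094 IDs, and the other 46 were kept in counts over all genes. Positions are from Ensembl release 115 (BDGP6). A few listed genes, among them Med and roX1, were not analysed here. Means, SDs, ranks and CVs were computed over the 4 control libraries with Python 3.11.15, pandas 2.3.3 and numpy 2.4.6, after checks on simulated data. No filter was applied unless stated, and logs used a pseudocount of 1 TPM.

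Named genes were the 6 given markers, stwl, the 20 most abundant genes, the 4 highest members and the silent members of each list, the paralogue pairs, the 10 genes highest and the 10 lowest in CV, the 5 most unequal genes per library (ties kept in table order) and the leader of each family. Others are named where a count or a pattern called for it, after their values were seen. Members and lists were chosen with earlier results of these data known, and the family name patterns were corrected after their members were seen. Alternatives covered the TPM minimum, pseudocount, scaling, correlation measure and leaving out each library.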

Additional observations from a re-analysis of the deposited data

Results flagged for a closer look

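Each of 222 values (named genes, list sums and a few library summaries) was examined by Dixon's criterion. It asks whether a library stands apart from the other 3 in the group of 4. Genes named only because they were high in 1 library or most variable were left out of this search. A library stood apart in 11 values (4.95%), and chance picks out about 1 in 20 groups. That rate cannot be set against this share, since some genes, among them Send1, Jon25Biii, kl-3 and kl-5, were among the named genes through their level in a single library. After scaling by the median of gene ratios, an alternative chosen after seeing the data, 7 of the 11 still met the criterion. Control 3 stood apart 4 times, controls 1 and 2 each 3 times and control 4 once.

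In control 3, Cp18, a chorion gene, was at 21.0, 7.33, 179 and 13.3 TPM in controls 1 to 4, and Jon25Biii, a digestive protease gene, at 0.473, 0.879, 131 and 1.02. The Y-linked dynein genes kl-3 and kl-5 were at 0.0035 and 0.00308 TPM in control 3 and at 0 elsewhere.

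In control 1, Send1, the spermathecal protease gene, was at 161, 0.0521, 0 and 0 TPM, and the spermatheca and oviduct sum, which Send1 dominates, was at 205 TPM against 35.4 to 36.4. Def, which encodes the antimicrobial peptide defensin, was low in control 1, at 24.0, 46.5, 47.5 and 45.9 TPM.

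In control 2, the germline identity sum was the lowest at 1879 TPM against 2042 to 2070, and the piRNA pathway sum at 2357 TPM against 2520 to 2544. These lists share members, among them vas and piwi, so the sums are not separate observations. After that scaling neither sum met the criterion, with germline identity at 2064, 1972, 1998 and 2006 and the piRNA pathway at 2513, 2474, 2486 and 2488 in controls 1 to 4. stau, an RNA-binding protein that localises oocyte RNAs, was also lowest there, at 54.3, 49.1, 54.8 and 54.6 TPM, and did not meet the criterion after scaling. In control 4, RpL34b, a ribosomal protein gene, was highest, at 1734, 1754, 1787 and 2045 TPM, which also failed the criterion after scaling.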

How the results depend on the processing

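Of 50 alternative values for the main summaries, 41 stayed within the limits set for a like value, 9 moved and none changed sign. Genes listed at 0 in all libraries rose from 1651 to 2599 when values below 0.1 TPM were counted, and the share of the 20 most abundant genes became 49.5% for 100 genes. The germline minus escort difference was 1.82 with means of members in place of medians. The lowest correlation was 0.980 with a pseudocount of 0.1 TPM, 0.969 over genes whose mean reached 1 TPM, 0.975 as Spearman's rho, and 0.988 to 0.993 when each library was left out in turn. Genes high in 1 library numbered 135 with a minimum of 2 TPM, and 8 when low in 1 library instead, a count chosen after seeing the data. Without each library in turn, detected genes numbered 8429 to 8494 and genes at 0 in all remaining libraries 1779 to 1932. For the paralogue pairs, 104 of 110 alternative values stayed alike and none changed sign. Their limit was the SD over the libraries, and leaving out a library cannot move a mean that far. Only the pair values with a pseudocount of 0.1 TPM could have moved, so the count says nothing about single libraries. The same holds for leaving out a library in the share of the 20 most abundant genes and in the germline minus escort difference. No paired analysis was possible because a single group was described. TPM keeps no depth, so the counting error of low values could not be computed, and transcripts under 250 nt take values in coarse steps.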

Other observations

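Of 14 antimicrobial peptide genes, 9 were detected, a share close to the 59.6% of all genes. Drs, which encodes the antifungal peptide drosomycin, was at 353, 759, 617 and 628 TPM in controls 1 to 4, and Dro, drosocin, at 80.7 ± 15.1 TPM. The list summed to 512, 948, 784 and 826 TPM, lowest in control 1, and Drs gave most of each sum. Of the 12 members whose mean reached 1 TPM, 5 were lowest in control 1, Drs and Def among them. Control 1 was the lowest library for 22.1% of all genes with such a mean. Mtk, AttA and DptB were highest there, at 21.4, 18.6, 7.05 and 15.7, 11.2, 4.73, 6.57 and 7.08 and 7.84, 5.81, 6.66 and 4.82 TPM in controls 1 to 4.

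Positional identity genes were restricted. Of 8 Hox genes, abd-A at 14 ± 0.716 TPM, Abd-B at 7.38 ± 0.849 and Antp at 1.25 ± 0.127 were detected, and the other 5 were below 1 TPM in every library. abd-A and Abd-B pattern the abdomen, which holds the ovary.

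The cytochrome P450 gene Cyp4g1, which makes cuticular hydrocarbons in oenocytes, was at 117, 216, 20 and 64.7 TPM, lowest in control 3. RNAs of the mitochondrial genome summed to 8923, 11608, 12752 and 9222 TPM, a different order of libraries from that of the germline lists, with mt:CoIII, a cytochrome c oxidase subunit, the most abundant at 3582 ± 665 TPM.

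Among genes under 250 nt, exactly the same TPM was shared with another such gene for 2 of the 17 values above 0 in control 1, 2 of 19 in control 2, 4 of 22 in control 3 and 6 of 18 in control 4. All of these values were above 1 TPM. Among genes of 1000 nt or more, at most 0.651% of the values of at least 1 TPM were shared in this way in a library.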
